A study of Mus musculus with 20 samples.

Results

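The genes described here encode the proteins of the mitochondrial ribosome. They were taken as the rows of the count table whose symbol is Mrpl or Mrps followed by a number, without pseudogenes, which gave 77 of 37620 genes. Mrpl33, which the same rule finds in the annotation, was not matched in the table by identifier and is not analysed here. All 77 passed the filter on low counts, so no member was lost to it and the whole set was tested among 17824 genes. By the place of the protein in mammalian structures, 50 members belong to the large subunit, among them Mrps18a and Mrps30 despite their symbols, and 26 to the small subunit. The last, Mrps36, was counted in neither, because its product is a subunit of the 2-oxoglutarate dehydrogenase complex.

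Mitochondria keep a ribosome of their own, which translates the few messenger RNAs encoded by mitochondrial DNA into membrane subunits of the respiratory chain and of ATP synthase. Its RNA comes from the mitochondrial genome, while every protein of it is encoded in the nucleus, made in the cytosol and imported. Some of the proteins have bacterial relatives, and others are found only in mitochondrial ribosomes. Genes for mitochondrial biogenesis are known targets of Myc, a transcription factor that promotes growth and division.

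Poly-adenylated RNA of mouse cells was sequenced after magnetic bead enrichment for B220, a form of the surface protein CD45 carried by B cells, all of C57BL/6 background. The 3 groups were normal spleen (n = 4), VavPBcl2/vector lymphomas (n = 8) and VavPBcl2/Myc lymphomas (n = 8). VavPBcl2 is a transgene that expresses Bcl2, an inhibitor of apoptosis, in blood cells under Vav gene promoter sequences, so both lymphoma groups carry it and normal spleen, per its label, does not. No label ties a replicate to an animal, so the p-values refer to the spread among these samples only, which may be technical.

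The counts assigned to genes ran from 28726309 to 56303148 per sample. B cell markers (Cd79a, Cd79b, Ms4a1, Pax5 and Cd22) were detected in each group, at a summed 3830 to 4711 CPM (counts-per-million, scaled to the normalised library size) in normal spleen, 3664 to 7038 in vector lymphomas and 651.7 to 4768 in Myc lymphomas. Erythroid markers summed to 100.4 to 1340 CPM in normal spleen, 1821 to 8531 in vector lymphomas and 2188 to 47748 in Myc lymphomas, and neutrophil markers to 75.6 to 890.4, 52.3 to 5661 and 1586 to 16411 CPM. Markers of 2 other cell types did not overlap between the lymphoma groups: those of NK and cytotoxic cells summed to 28.0 to 59.97 CPM in vector and 133.0 to 577.6 CPM in Myc lymphomas, and those of plasma cells to 3989 to 7853 CPM in vector and 662.0 to 3663 CPM in Myc lymphomas. The sample descriptions give an instrument code and a run number. By the run numbers within each instrument, 7 libraries (normal replicate 1 and vector replicates 1 to 6) were taken as later runs. The other 13, including every Myc lymphoma, were taken as earlier runs. This split is inferred, and the labels do not state what it means. Myc replicate 5 stood apart from the other Myc lymphomas. Of the 8 it had the highest erythroid, B cell, NK and cytotoxic, plasmacytoid dendritic and macrophage marker sums. Its T cell, neutrophil and plasma cell sums were not the highest. Of all samples it had the highest share of reads not aligned uniquely (40.3%) and the lowest share outside features (8.26%). The member results are also given without this replicate and within the earlier runs.

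Members of both subunits were higher in Myc lymphomas than in vector lymphomas. Of the 77, 66 rose and none fell (edgeR quasi-likelihood F test, Benjamini-Hochberg adjusted p under 0.05 over all genes tested, n = 8 and 8), where 26.6% of all genes tested rose and 21.9% fell. The median log2 fold change of the members was 0.94, beside 0.08 for all genes tested. In the large subunit 41 of 50 rose, with a median log2 fold change of 0.94, and in the small subunit 24 of 26, with a median of 0.78; Mrps36 rose as well. In bulk RNA a change in the share of cells that express a gene and a change of RNA per cell cannot be told apart, and the part of the marker changes above in this result was not tested.

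The mean log2 CPM of the 50 large subunit members was 4.14, 4.47, 4.52 and 4.36 in normal replicates 1 to 4. In vector lymphomas it ran from 4.07 to 4.94 with a median of 4.25, and in Myc lymphomas from 4.88 to 6.65 with a median of 5.17. Vector replicate 7, at 4.94, was the only vector lymphoma within the range of the Myc lymphomas, above Myc replicates 3, 6 and 8. The mean of the 26 small subunit members was 4.14, 4.29, 4.32 and 4.23 in normal replicates 1 to 4, 4.00 to 4.70 in vector lymphomas (median 4.07) and 4.64 to 6.28 in Myc lymphomas (median 4.93). Again vector replicate 7 (4.70) alone reached the Myc lymphomas. Myc replicate 5 was the highest for both subunits, at 6.65 and 6.28 where the next Myc lymphoma had 5.42 and 5.08, although its level of Myc itself was the lowest of the Myc lymphomas, at 312.9 CPM against 717.0 to 1646 in the other 7.

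**Figure D1:**
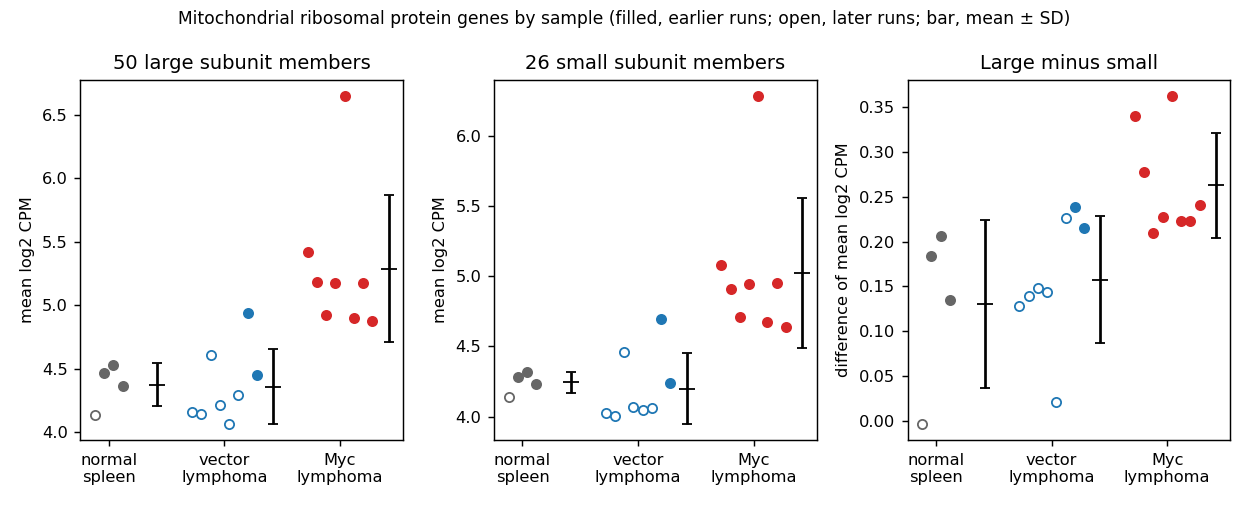
Mean log2 CPM of the 50 large subunit members, of the 26 small subunit members, and the difference between these means, with 1 point per sample in normal spleen (n = 4), vector lymphomas (n = 8) and Myc lymphomas (n = 8). Filled points are earlier sequencing runs, open points later runs, and bars give the mean ± SD; Myc replicate 5 is the top point of both means, at 6.65 and 6.28.

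The difference between the large and the small subunit mean was -0.004, 0.183, 0.206 and 0.134 in normal replicates 1 to 4, 0.020 to 0.238 in vector lymphomas (median 0.146) and 0.210 to 0.362 in Myc lymphomas (median 0.234). Every Myc lymphoma lay above every normal sample, with a gap smaller than the spread within either group, and the vector lymphomas overlapped both. Within the earlier runs the vector lymphomas had 0.238 and 0.215, which lies inside the range of the Myc lymphomas. The large subunit took 67.1 to 71.4% of the counts of both subunits in the 20 samples. Per kilobase of annotated transcript, in normal spleen, the median level was 15.5 CPM per kilobase for the large subunit and 14.99 for the small subunit, and in Myc lymphomas 31.2 and 25.9. Levels of single members per kilobase spanned 2.56 (Mrps25) to 117.9 (Mrpl24) in normal spleen.

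Among large subunit members, Mrpl12 encodes the stalk protein that engages translation factors. Its level was 33.5, 42.6, 42.7 and 34.8 CPM in normal replicates 1 to 4, 29.2 to 51.8 CPM in vector lymphomas (median 35.6) and 73.0 to 338.2 CPM in Myc lymphomas (median 91.5). All 8 Myc lymphomas lay above all 8 vector lymphomas and all normal samples. The log2 fold change over vector lymphomas was 1.71 ± 0.27 (SE; edgeR adjusted p = 4.8e-05). Mrpl12 was also among the members whose vector lymphomas of the later runs (29.2 to 51.8 CPM) spanned those of the earlier runs (46.4 and 37.7 CPM). Mrpl10, the base of the stalk (log2 fold change 0.60 ± 0.18, edgeR adjusted p = 0.0097), and Mrpl11, in the neighbouring factor-binding region (0.94 ± 0.27, edgeR adjusted p = 0.0075), rose as well.

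Mrpl17, a large subunit protein with a bacterial relative, had 16.0, 26.7, 24.1 and 23.8 CPM in normal replicates 1 to 4, 13.0 to 48.8 CPM in vector lymphomas (median 19.7) and 56.3 to 241.0 CPM in Myc lymphomas (median 67.9). The Myc lymphomas overlapped neither other group, and the log2 fold change over vector lymphomas was 1.92 ± 0.31 (edgeR adjusted p = 5.3e-05). Mrpl42, which bacterial ribosomes lack, had the highest log2 fold change of the members, 2.40 ± 0.48 (edgeR adjusted p = 0.00043). Its level was 6.36, 20.1, 17.8 and 16.5 CPM in normal replicates 1 to 4, 4.40 to 35.3 CPM in vector lymphomas (median 6.49) and 26.8 to 172.1 CPM in Myc lymphomas (median 43.2). Here the low values were those of the later runs: vector replicates 1 to 6 had 4.40 to 7.23 CPM, while vector replicates 7 and 8 had 35.3 and 19.6 CPM. Within the earlier runs its log2 fold change was 1.10 ± 0.58 (edgeR adjusted p = 0.28).

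The other members with the largest fold changes were Mrps36, Mrpl34 (log2 fold change 2.11 ± 0.42), Mrps24, Mrpl35 (1.95 ± 0.31) and Mrpl23 (1.92 ± 0.40), all with an edgeR adjusted p of 0.00079 or less. As for Mrpl42, the later vector libraries were low: Mrpl34 had 5.64 to 10.3 CPM in vector replicates 1 to 6 and 31.5 and 17.8 CPM in vector replicates 7 and 8. Within the earlier runs the log2 fold changes were 1.06 ± 0.64 (Mrps36, edgeR adjusted p = 0.35), 1.06 ± 0.59 (Mrpl34, edgeR adjusted p = 0.31), 1.00 ± 0.60 (Mrpl23, edgeR adjusted p = 0.35), 1.29 ± 0.59 (Mrps24, edgeR adjusted p = 0.21) and 1.22 ± 0.51 (Mrpl35, edgeR adjusted p = 0.17). With run set as a term Mrps36, Mrpl34 and Mrpl23 were not called (edgeR adjusted p of 0.084, 0.077 and 0.12). Mrps24 encodes a small subunit protein with a bacterial relative. It had 12.2, 23.6, 22.3 and 21.2 CPM in normal replicates 1 to 4, 9.40 to 33.5 CPM in vector lymphomas (median 12.8) and 35.2 to 207.2 CPM in Myc lymphomas (median 46.2). The Myc lymphomas overlapped neither other group, and the log2 fold change over vector lymphomas was 2.02 ± 0.35 (edgeR adjusted p = 0.00013). Mrps36 was weakly expressed, at 1.35, 2.44, 2.61 and 3.51 CPM in normal replicates 1 to 4, 0.61 to 5.32 CPM in vector lymphomas (median 1.13) and 3.80 to 26.4 CPM in Myc lymphomas (median 6.25), so the lymphoma groups overlapped through vector replicate 7. Its log2 fold change was 2.24 ± 0.48 (edgeR adjusted p = 0.00079).

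**Figure D2:**
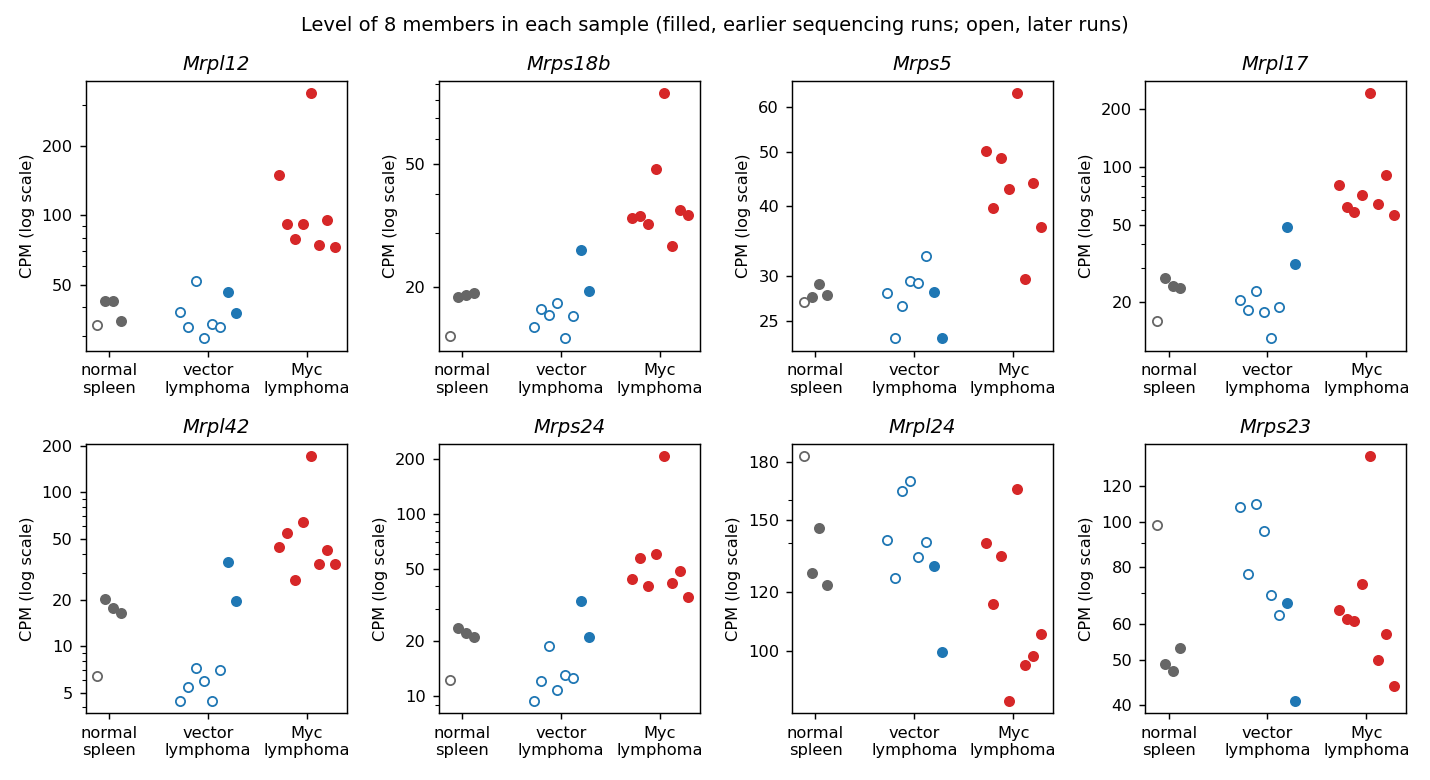
Level in CPM, on a log axis whose range differs between panels, of 8 members in every sample, with filled points for earlier and open points for later sequencing runs. Mrpl12 and Mrps18b separate the Myc lymphomas from the vector lymphomas, the open points of Mrpl42 lie at 4.40 to 7.23 CPM below the filled ones, and those of Mrps23 lie at 62.8 CPM or above.

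Of the fixed small subunit members, the paralogs Mrps18b and Mrps18c rose, and so did the related large subunit member Mrps18a (log2 fold change 0.78 ± 0.24, edgeR adjusted p = 0.011). Mrps18b had 14.0, 18.6, 18.9 and 19.2 CPM in normal replicates 1 to 4, 13.7 to 26.4 CPM in vector lymphomas (median 16.6) and 27.2 to 84.1 CPM in Myc lymphomas (median 34.0). The Myc lymphomas overlapped neither other group, and the log2 fold change over vector lymphomas was 1.21 ± 0.20 (edgeR adjusted p = 8.5e-05). Mrps18c had a log2 fold change of 1.15 ± 0.29 (edgeR adjusted p = 0.0029). Mrps5, a protein of the small subunit body, had 27.0, 27.5, 29.1 and 27.7 CPM in normal replicates 1 to 4, 23.3 to 32.6 CPM in vector lymphomas (median 28.1) and 29.6 to 63.5 CPM in Myc lymphomas (median 43.5). A single Myc lymphoma, replicate 6 at 29.6 CPM, lay within the range of the vector lymphomas. Its log2 fold change was 0.69 ± 0.13 (edgeR adjusted p = 0.00033).

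Mrps2, which has a bacterial relative, had 21.999, 25.9, 26.6 and 24.4 CPM in normal replicates 1 to 4, 18.4 to 31.9 CPM in vector lymphomas (median 23.5) and 29.5 to 60.9 CPM in Myc lymphomas (median 37.7). Vector replicate 7 lay above the 2 lowest Myc lymphomas, the highest Myc lymphoma was replicate 4 and not replicate 5, and the log2 fold change was 0.74 ± 0.15 (edgeR adjusted p = 4e-04). Mrps12, a protein of the decoding site, rose by 0.69 ± 0.26 (edgeR adjusted p = 0.034), Mrps7 by 0.70 ± 0.23 (edgeR adjusted p = 0.016) and Mrps15 by 0.75 ± 0.26 (edgeR adjusted p = 0.023) on the log2 scale. Mrps22, found only in mitochondrial ribosomes, rose by 1.14 ± 0.23 (edgeR adjusted p = 0.00047). Of the large subunit, Mrps30 rose by 1.07 ± 0.21 (edgeR adjusted p = 0.00038), Mrpl13 by 1.13 ± 0.28 (edgeR adjusted p = 0.0026), Mrpl44, a protein with a ribonuclease III-like fold, by 0.82 ± 0.18 (edgeR adjusted p = 0.0011) and Mrpl58, the hydrolase that rescues stalled mitochondrial ribosomes, by 0.94 ± 0.25 (edgeR adjusted p = 0.0046).

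The 11 members not called were 9 of the large subunit (Mrpl3, Mrpl9, Mrpl24, Mrpl38, Mrpl40, Mrpl41, Mrpl46, Mrpl49 and Mrpl53) and 2 of the small subunit (Mrps9 and Mrps23). Mrpl3, a core protein close to the peptidyl transferase centre, had 44.6, 34.4, 39.8 and 30.5 CPM in normal replicates 1 to 4, 34.3 to 48.7 CPM in vector lymphomas (median 41.6) and 34.7 to 52.7 CPM in Myc lymphomas (median 41.1). The ranges lay on top of each other, with a log2 fold change of 0.01 ± 0.12 (edgeR adjusted p = 0.95). The others of the lowest 6 had log2 fold changes of -0.23 ± 0.15 (Mrpl24), -0.19 ± 0.24 (Mrps23), -0.07 ± 0.29 (Mrpl53), -0.02 ± 0.26 (Mrpl49) and 0.29 ± 0.18 (Mrpl38), with edgeR adjusted p from 0.19 to 0.96.

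Mrpl24 had the highest level per kilobase of the members in normal spleen. It had 183.3, 127.3, 146.6 and 122.6 CPM in normal replicates 1 to 4, 99.6 to 169.3 CPM in vector lymphomas (median 137.1) and 85.5 to 165.3 CPM in Myc lymphomas (median 110.5). Its annotated exons share 594 bases with Rrnad1 on the opposite strand, and no source used here gives the strand use of the counting, so its reads cannot be told apart from those of that gene. Mrps23 had 98.4, 49.0, 47.4 and 53.2 CPM in normal replicates 1 to 4, 40.7 to 109.5 CPM in vector lymphomas (median 73.1) and 43.9 to 139.4 CPM in Myc lymphomas (median 61.2). In contrast to Mrpl42, its high values were those of the later runs, normal replicate 1 with 98.4 CPM and vector replicates 1 to 6 with 62.8 to 109.5 CPM, beside 66.8 and 40.7 CPM in vector replicates 7 and 8. Exons of Mrpl12 share 200 bases with Gm16755 and those of Mrps18b 638 bases with Gm16279, both on the opposite strand. In all, exons of 25 members overlap those of another annotated gene; without these 25, 45 of the remaining 52 members rose.

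**Figure D3:**
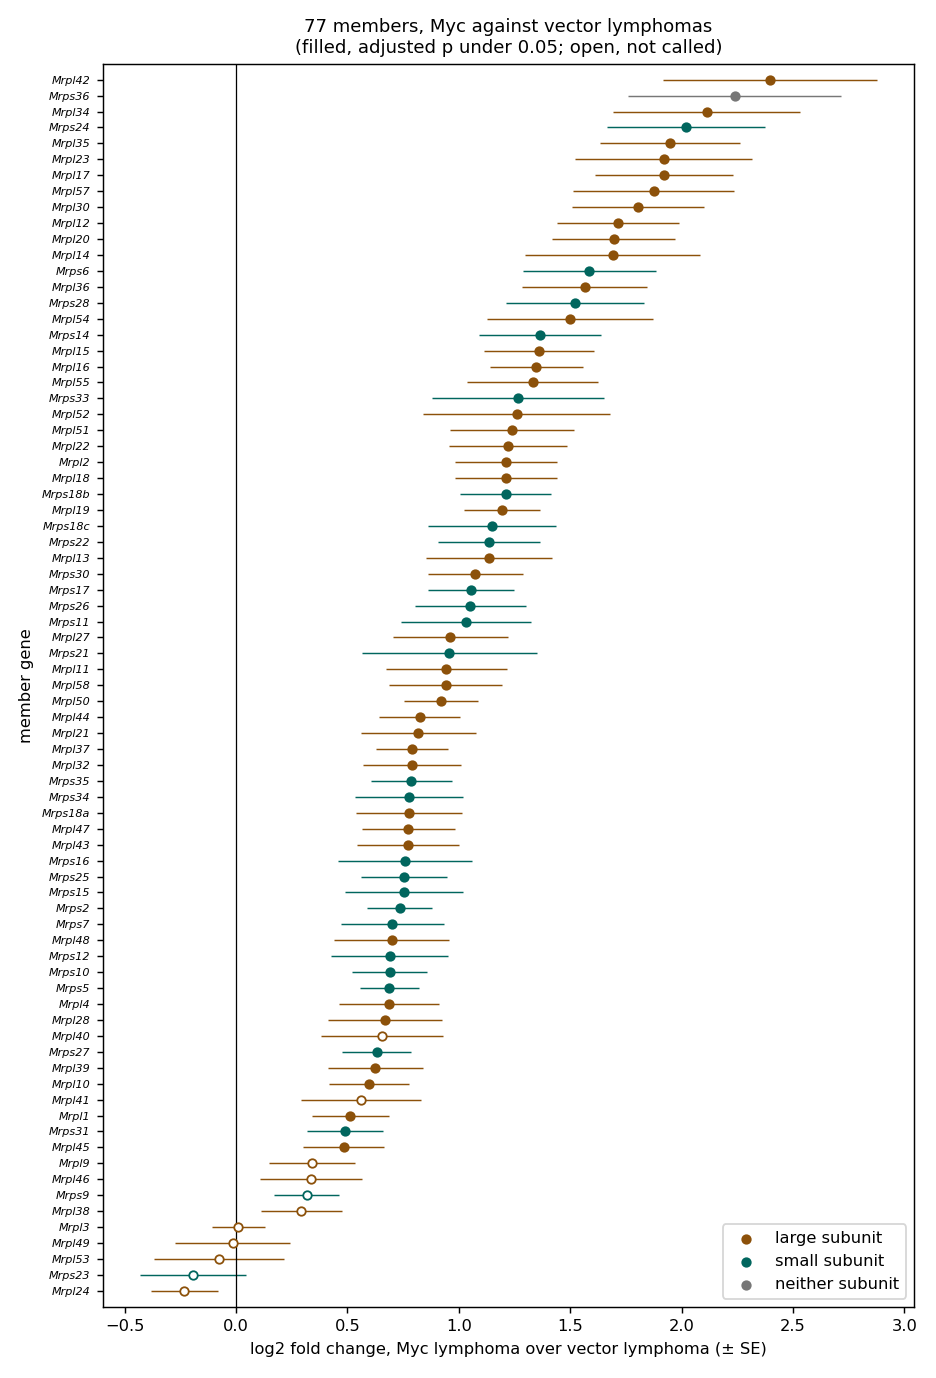
Log2 fold change of each of the 77 members in Myc over vector lymphomas, ± SE, from the fit of all 20 samples, coloured by subunit and ordered by value. Filled points passed an adjusted p of 0.05; the values run from -0.23 (Mrpl24) to 2.40 (Mrpl42).

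All values of a member in Myc lymphomas lay above all of its values in vector lymphomas for 17 of 77 members, 11 large and 6 small, where 5.12% of all genes tested did. Without Myc replicate 5, 59 members rose, with a median log2 fold change of 0.62, where 25.6% of all genes tested rose. Within the earlier runs, with 8 Myc lymphomas against 2 vector lymphomas, all 77 log2 fold changes were positive, with a median of 0.71, but no member passed the test where 2.97% of all genes tested rose. Of the 18505 genes tested there, 9984 had a positive log2 fold change. The smallest edgeR adjusted p of a member was 0.066. An unadjusted edgeR p under 0.05 was found for 18 of 77 members, all of them positive. It was found for 4198 of the 18505 genes in either direction. These shares are not alike in direction, so they do not show whether members exceed all genes in rising. With run set as a term in the fit of all samples, 18 members rose, 12 large and 6 small, where 9.2% of all genes tested did. These were Mrpl12, Mrpl15, Mrpl16, Mrpl17, Mrpl19, Mrpl20, Mrpl30, Mrpl35, Mrpl37, Mrpl42, Mrpl47, Mrpl50, Mrps5, Mrps17, Mrps18b, Mrps24, Mrps27 and Mrps28. All 18 were also called without Myc replicate 5, and with the length trend described next removed.

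The run sets differed within groups too. In vector lymphomas, 64 of 77 members were lower in the 6 later libraries than in the 2 earlier ones, with a median log2 difference of -0.38, beside -0.05 over all genes tested. The 2 earlier vector libraries also carry another series of sample titles than the 6 later ones, so run set and title series cannot be told apart in this group. In normal spleen 57 of 77 were lower in the 1 later library than in the 3 earlier ones, with a median difference of -0.25, beside 0.00 over all genes. The mitochondrially encoded genes, whose messenger RNAs the ribosome translates, separated by run set as well, with a mean log2 CPM of 6.65 to 7.78 in the later vector lymphomas and 10.97 and 11.46 in the earlier ones. The part of run set in the member results was not tested beyond these fits.

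Fold changes also followed transcript length across the transcriptome. Among other protein-coding genes with transcripts under 750 bases the median log2 fold change in Myc over vector lymphomas was 1.22, and among those over 5000 bases -0.34. The members' medians lay above those of other genes in each of the 7 length classes, at 1.56 against 1.22 for the 13 members under 750 bases, 0.80 against 0.42 for the 22 members of 1000 to 1500 bases, and 0.87 against -0.20 for the 14 members of 3000 to 5000 bases. With each sample's trend on annotated length removed, 50 members rose and 5 fell, where 23.3% of all genes tested rose and 25.8% fell, and the median log2 fold change of the members was 0.57, beside -0.03 for all genes. The 5 that fell were Mrpl53 (-1.13), Mrps21 (-0.74), Mrpl24 (-0.64), Mrps23 (-0.60) and Mrpl41 (-0.36 on the log2 scale). Of these, Mrps21 had been called higher without that step (0.96 ± 0.39, edgeR adjusted p = 0.049), so its call reversed. In the same fit Mrps12 (-0.25), Mrps15 (-0.04), Mrps18a (-0.05) and Mrps18c (0.02 on the log2 scale), which rose without that step, were not called. The same held for Mrpl52 (-0.42), Mrpl27 (-0.004) and Mrps34 (-0.009), the last 2 named after their values were seen. Further members not listed here also lost their call. In all, 22 members were not called in this fit, beside 11 without that step. Myc replicate 5 had the steepest trend, with short transcripts a median 2.25 above and long ones 1.23 below the mean of normal spleen on the log2 scale (short, 1000 bases or less; long, over 3000), and vector replicate 7 the steepest of the vector lymphomas, at 0.57 above and 0.35 below.

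**Figure D4:**
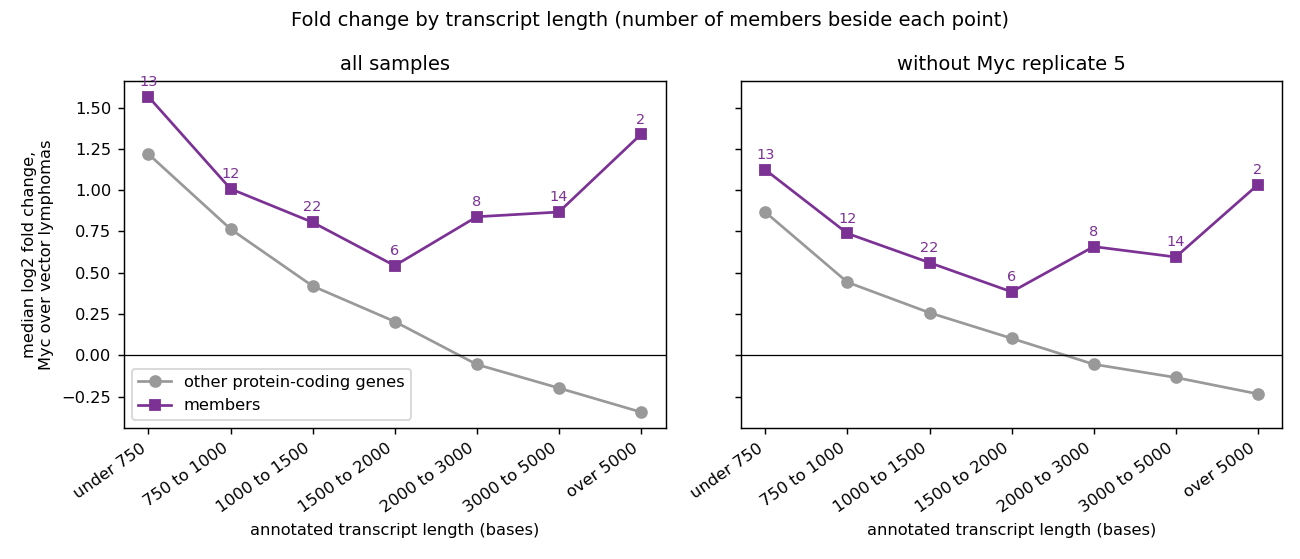
Median log2 fold change in Myc over vector lymphomas of members and of other protein-coding genes in 7 classes of annotated transcript length in bases, with all samples on the left and without Myc replicate 5 on the right, and the number of members beside each point. The members' medians lie above those of other genes in each class, including the longest, which holds only 2 members.

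No difference between vector lymphomas and normal spleen passed the test for any member. None of the 77 was called in either direction by edgeR (n = 8 and 4), nor by DESeq2 or limma voom, and none had an unadjusted p under 0.05 in edgeR, where 7.46% of all genes tested rose and 3.36% fell in vector lymphomas. The median log2 fold change was 0.001 for the members, 0.03 for the large and -0.01 for the small subunit, beside -0.03 for all genes. The highest log2 fold changes were those of Mrpl52 (0.73 ± 0.52) and Mrpl57 (0.44 ± 0.44), and the lowest those of Mrpl30 (-0.56 ± 0.34) and Mrps36 (-0.47 ± 0.56), none distinguishable from 0 at this spread (edgeR adjusted p from 0.34 to 0.65). The other members furthest from 0 were Mrps12, Mrpl51, Mrpl46 and Mrps23 above it, and Mrpl42, Mrpl22, Mrps33 and Mrps17 below it. Within the earlier runs (n = 2 and 3) the median was 0.25, beside 0.04 for all genes. There 67 of 77 members and 9858 of 18505 genes were positive. No member was called, where only 0.621% of all genes tested rose and 0.0432% fell. With run set as a term the median was 0.16, beside 0.01 for all genes, and 58 of 77 members and 9007 of 17824 genes were positive. Again no member was called, where 4.86% of all genes tested rose and 2.01% fell. With the length trend removed, Mrpl30 (log2 fold change -0.55, edgeR adjusted p = 0.013) and Mrps17 (-0.40, edgeR adjusted p = 0.03) fell. These were 2 of 77 members, where 6.65% of all genes tested fell in that fit.

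Myc lymphomas stood above normal spleen in both subunits. Of the 77 members 56 rose and none fell (edgeR adjusted p under 0.05, n = 8 and 4), where 21.5% of all genes tested rose and 17.9% fell, and the median log2 fold change was 0.91. Of the large subunit 38 of 50 rose (median 0.91) and of the small subunit 17 of 26 (median 0.87). The highest were Mrpl57 (2.31 ± 0.48), Mrpl17 (2.00 ± 0.41), Mrpl52 (1.99 ± 0.56), Mrpl42 (1.95 ± 0.62), Mrpl34 (1.93 ± 0.54) and Mrps28 (1.85 ± 0.41), with edgeR adjusted p of 0.016 or less. With the length trend removed these were 2.44, 2.90, 0.41 (Mrpl52, edgeR adjusted p = 0.36, no longer called), 0.93, 0.78 and 0.89 in the same order. The lowest were Mrpl24 (-0.30 ± 0.18), Mrps23 (0.15 ± 0.29), Mrpl3 (0.18 ± 0.15), Mrpl53 (0.20 ± 0.36), Mrpl49 (0.22 ± 0.32) and Mrps31 (0.34 ± 0.21), none of which was called. This comparison shares its Myc lymphomas with the one against vector lymphomas, so the lists of members are not independent of each other.

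The levels of 45 of 77 members, 28 large and 16 small and Mrps36, did not overlap between Myc lymphomas and normal spleen, where 13.1% of all genes tested did so in this direction. Within the earlier runs (n = 8 and 3) 23 members rose, with a median of 0.89, where 12.7% of all genes tested rose, and with run set as a term 49 rose, where 20.6% did. Without Myc replicate 5 the median log2 fold change of the members over normal spleen was 0.68. Over normal spleen, Mrpl12 had a log2 fold change of 1.69 ± 0.35 (edgeR adjusted p = 0.001), Mrps18b of 1.22 ± 0.26 (edgeR adjusted p = 0.0012) and Mrps5 of 0.67 ± 0.17 (edgeR adjusted p = 0.0037). With the length trend removed 33 members rose and 2 fell, Mrpl24 (-0.76) and Mrps21 (-0.71 on the log2 scale). In that fit 18.7% of all genes tested rose and 23.3% fell.

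Lists of genes that work with the mitochondrial ribosome are read against the 26.6% of all genes tested that rose and the 21.9% that fell in Myc over vector lymphomas. Among 5 further proteins of the ribosome whose symbols the rule does not catch, Gadd45gip1 (1.20 ± 0.30), Aurkaip1 (0.99 ± 0.30) and Ptcd3 (0.37 ± 0.11) rose in Myc over vector lymphomas, and Chchd1 (0.69 ± 0.30) and Dap3 (0.37 ± 0.16, log2 fold changes) were not called. Of 26 assembly factors 10 rose and 5 fell, with a median log2 fold change of 0.14. The GTPases Noa1 (1.10 ± 0.13) and Mtg1 (1.28 ± 0.22) and the small subunit assembly factor Rbfa (1.21 ± 0.19) rose. Of 15 translation factors 5 rose and none fell (median 0.38), among them Slirp, an RNA stability protein (2.18 ± 0.40), Mtfmt, which formylates the initiator tRNA (0.48 ± 0.14), and Tufm, the elongation factor that delivers tRNA (0.53 ± 0.17). Within these lists the edgeR adjusted p of the genes given as rising was 0.012 or less. With run set as a term, 9.2% of all genes tested rose and 9.77% fell. In that fit 0 of the 5 further ribosome proteins were called (smallest edgeR adjusted p = 0.072). Of the 26 assembly factors 4 rose and 1 fell, and of the 15 translation factors 1 rose.

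The shares called were near those of all genes for the tRNA synthetases and for transcription and DNA upkeep. Whether these short lists differ from the short lists above was not tested. Of 17 mitochondrial tRNA synthetases 5 rose and 2 fell (median 0.31), led by Yars2 (0.70 ± 0.19), Hars2 (-0.55 ± 0.15) and Iars2 (0.45 ± 0.14, log2 fold changes). Of 11 genes of mitochondrial transcription and DNA upkeep 3 rose and 2 fell (median 0.20), led by the DNA polymerase gene Polg, which fell by 0.99 on the log2 scale, Top1mt (0.73 ± 0.17) and Tefm (0.94 ± 0.22). With run set as a term, where 9.2% of all genes tested rose and 9.77% fell, 3 synthetases rose and 0 fell. In that fit 2 genes of the latter list rose and 1 fell. The 15 mitochondrially encoded genes, of which 14 rose (median 2.39; mt-Nd6 1.53 ± 0.34, mt-Co1 2.39 ± 0.63 and mt-Nd1 2.64 ± 0.73), gave 0 calls with run set as a term. Of 81 cytosolic ribosomal protein genes, 74 rose (median 1.51), among them Rplp0 (1.92 ± 0.30), Rps28 (3.15 ± 0.53) and Rpl36al (1.69 ± 0.30). With the length trend removed 42 rose and 3 fell, where 23.3% of all genes tested rose and 25.8% fell. Their median was then 0.53, beside 0.57 for the mitochondrial members. With run set as a term 9 of the 81 rose (median 1.06), where 9.2% of all genes tested did. Within the earlier runs 0 of the 81 rose (smallest edgeR adjusted p = 0.1), where 2.97% of all genes tested did.

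Some members start close to a gene read in the opposite direction. Of the 77, 33 have a coding partner whose start site lies within 1000 bases on the other strand, and 28 such partners outside the set were tested. Of these 28 partners 9 rose and 8 fell in Myc over vector lymphomas, with a median log2 fold change of 0.20, beside 0.82 for the members they pair with; 26.6% of all genes tested rose and 21.9% fell, so the partners' shares lay near the background. Pearson's r between member and partner was -0.01 across these 28 pairs, which are not independent replicates. Among pairs whose member is in the fixed list, the partner fell in 4, with the start sites 29 to 340 bases apart. Other tested partners of fixed members, Wdfy1 (0.29 ± 0.16), Sars2 (0.39 ± 0.16) and Zfp661 (0.59 ± 0.25, log2 fold changes), were not called. Helq, a DNA helicase gene beside Mrps18c, fell by 1.59 (± 0.15) on the log2 scale, Gga3 beside Mrps7 by 0.80 (± 0.15), Ppp1r10 beside Mrps18b by 0.69 (± 0.17) and Mtbp beside Mrpl13 by 0.42 (± 0.15). All 4 members rose over vector lymphomas, but with the length trend removed Mrps18c was at 0.02 on the log2 scale (edgeR adjusted p = 0.94). These pairs were singled out after their values were seen. Exons of Mrpl13 and Mtbp share 330 bases on opposite strands, and those of Mrps7 and Gga3 share 127. The strand use of the counting is not known, so reads there cannot be told apart.

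Promoter sequences from RefSeq (GRCm38.p6, 250 bases before to 50 after the start) were found for 68 of the 77 members. The letters CACGTG, the E-box to which Myc binds with Max, were in 5 of 68 windows (7.35%), beside 11.2% of the windows of genes tested and 8.09% of all windows. The variant CACGCG was in 19.1%, 18.8% and 10.5% of the same sets, and the ETS factor letters CCGGAAG in 36.8%, 18.6% and 9.93%. AAGATGGC, the letters of YY1, were in 17.6%, 4.97% and 3.19%, and GCATGCGC, those of NRF1, in 10.3%, 5.52% and 3.05%. The median log2 fold change of members with and without the letters was 1.21 and 0.82 for CACGTG, 0.82 and 0.94 for CACGCG, 0.96 and 0.79 for CCGGAAG, 0.79 and 0.94 for AAGATGGC, and 0.79 and 0.94 for GCATGCGC, a description with 5 to 25 members holding each. In all, 8 motifs were searched, and the others were less frequent in members than in genes tested. GGGCGG (GC box) was in 50%, 65.3% and 38.2% of the same sets, CCAAT in 38.2%, 42.5% and 41.1%, and TATAAA in 7.35%, 9.26% and 15.7%. Median log2 fold changes with and without these letters were 1.09 and 0.80, 0.78 and 0.997, and 1.05 and 0.92 in the same order. All motifs were searched on both strands, and a match describes letters only.

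The 250 bases before the start are shown for Mrps18c, the member of the fixed list with CACGTG, for Mrpl17 and for Mrpl24. Mrpl17 has 2 copies of the variant and is among the members with the largest fold changes. Mrpl24 has none of the 8 motifs searched and the lowest fold change. Capitals mark matches on either strand. In Mrps18c (chr5:100798509-100798758, plus strand) CACGTG begins 163 bases before the start and CTTCCGG, the ETS letters on the other strand, 156 bases before it. In Mrpl17 (chr7:105811088-105811337, minus strand) CACGCG begins 46 and 27 bases before the start, CCGGAAG 237 bases before it and GCGCATGC, the NRF1 letters on the other strand, 11 bases before it. The Mrpl24 window is chr3:87919294-87919543, plus strand, and all are GRCm38.p6, not the build of the counts.
Mrps18c: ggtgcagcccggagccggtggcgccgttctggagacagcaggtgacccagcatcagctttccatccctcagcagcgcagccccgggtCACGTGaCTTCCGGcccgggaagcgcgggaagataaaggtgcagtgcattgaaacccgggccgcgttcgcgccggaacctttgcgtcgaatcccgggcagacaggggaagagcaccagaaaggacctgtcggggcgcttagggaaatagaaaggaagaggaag
Mrpl17: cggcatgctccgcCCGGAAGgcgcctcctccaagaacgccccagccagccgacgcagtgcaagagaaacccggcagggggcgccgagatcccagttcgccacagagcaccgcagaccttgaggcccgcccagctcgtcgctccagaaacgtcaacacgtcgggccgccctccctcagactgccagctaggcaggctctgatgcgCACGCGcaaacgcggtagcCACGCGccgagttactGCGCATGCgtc
Mrpl24: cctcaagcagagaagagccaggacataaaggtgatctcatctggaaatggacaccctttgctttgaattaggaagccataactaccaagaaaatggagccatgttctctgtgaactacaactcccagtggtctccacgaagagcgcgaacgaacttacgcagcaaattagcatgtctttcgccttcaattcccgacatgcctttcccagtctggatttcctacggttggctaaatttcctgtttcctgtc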

How the data were processed

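The deposited table holds raw read counts per gene and sample, whole numbers that the authors did not normalise. Tools named in the submitters' processing notes, with no role or order, are HTSeq, Picard 1.119 and BWA 0.7.5a, and builds are mm9 and NCBIM37. Per the labels' protocols, RNA was fragmented with RNase III and sequenced on an Ion Proton. No source used here gives the strand use of the counting.

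Entries of the deposited counts that name no gene (unaligned, ambiguous, not unique or outside features) held 43 to 62.9% of reads (median 48%) and were left out, leaving 28726309 to 56303148 counts per sample. Gene names came from GENCODE vM21, which matched 32897 identifiers and not 4723. Groups came from the tissue labels, and run sets were inferred from the run numbers within each instrument in the sample descriptions. A single edgeR 4.0.16 quasi-likelihood model (R 4.3.3, TMM scaling, low counts filtered with filterByExpr) was fitted to all 20 samples and 3 comparisons, with p-values adjusted over all genes tested by Benjamini-Hochberg at 0.05. Errors on log2 fold changes are standard errors of the fit, and log2 CPM used a prior count of 2. The scripts were tested on simulated data.

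Alternatives were other scalings, no filter, DESeq2 1.42.0, limma voom 3.58.1, fits to fewer samples, a run set term, and leaving out each replicate. The length trend (loess, span 0.4, on the median length of the principal transcripts), the same without Myc replicate 5, and leaving out members with overlapping exons were added after seeing the data. Members named are a fixed list of 18, the 6 highest and 6 lowest in each comparison, any called against the direction of most, the 3 genes with the smallest p in each related list, and the further ribosome proteins. The members and lists were chosen with earlier results of these data known. A further gene of the B cell marker list is not reported here and is not in its sums.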

Additional observations from a re-analysis of the deposited data

Results flagged for a closer look

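In 15 of 42 groups of values tested, the highest or lowest sample stood further from its neighbour than Dixon's 95% critical value allows. Chance would give about 1 in 20 only if the groups were independent. These groups share samples and members, and single members were tested as unlogged CPM, so the 15 are a description only. Of the 15, 9 were Myc replicate 5. It had a mean log2 CPM of 6.65 for large subunit members (next Myc lymphoma 5.42) and 6.28 for small subunit members (next 5.08). Its levels were 338.2 CPM for Mrpl12, 241.0 for Mrpl17, 172.1 for Mrpl42, 84.1 for Mrps18b, 207.2 for Mrps24, 139.4 for Mrps23 and 26.4 for Mrps36, where the next Myc lymphomas had 149.0, 91.2, 63.7, 48.2, 59.97, 73.3 and 8.35 CPM.

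Vector replicate 7 stood apart for Mrps2 (31.9 CPM, next 24.5), Mrps18b (26.4 CPM, next 19.4) and Mrps36 (5.32 CPM, next 2.80). Normal replicate 1 was low for Mrps18b (14.0 CPM, next 18.6) and high for Mrps23 (98.4 CPM, next 53.2). Myc replicate 4 was high for Mrps2 (60.9 CPM, next 43.9).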

How the results depend on the processing

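Between Myc and vector lymphomas, 66 members rose, 0 within the earlier runs and 18 with run set as a term. The shares of all genes tested that rose were 26.6%, 2.97% and 9.2% in the same order. With the length trend removed 5 members fell, where 25.8% of all genes tested fell. Also without Myc replicate 5, 45 rose and 6 fell, where 22.8% of all genes tested rose and 26.5% fell. In that fit the median log2 fold change was 0.47 for all members, 0.48 for the large and 0.40 for the small subunit. Between vector lymphomas and normal spleen 2 members fell with the length trend removed, and 2 also without Myc replicate 5. In these fits 6.65% and 9.44% of all genes tested fell. Between Myc lymphomas and normal spleen 23 rose within the earlier runs, where 12.7% of all genes tested did. With members of overlapping exons left out, which removes 25 members, 37 rose, where 21.5% of all genes tested did. With library totals only, 1 fell. In this comparison the length trend removed gave 33 higher and 2 lower, with medians of 0.47 (members), 0.46 (large) and 0.48 (small). In that fit 18.7% of all genes tested rose and 23.3% fell. Also without Myc replicate 5, 31 were higher and 2 lower, with medians of 0.39, 0.38 and 0.36. There 18.8% of all genes tested rose and 24.3% fell. With the length trend removed, the log2 fold change over vector lymphomas turned to -0.25 for Mrps12, -0.043 for Mrps15 and -0.047 for Mrps18a, and also without Myc replicate 5 to -0.29, -0.15 and -0.10, and to -0.028 for Mrps18c; over normal spleen Mrps18a then had -0.028. None of these turned values was called. Mrps21 did turn from a called rise over vector lymphomas (0.96, edgeR adjusted p = 0.049) to a called fall with the length trend removed (-0.74, edgeR adjusted p = 0.00027). The cause of these changes was not tested.

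Leaving out 1 replicate at a time gave 59 (without Myc replicate 5) to 68 members higher and 0 lower in Myc over vector lymphomas, with medians of 0.62 to 1.02 (large 0.64 to 1.03, small 0.58 to 0.85). For vector lymphomas over normal spleen it gave 0 higher and 0 lower, with medians of -0.06 to 0.09 (large -0.06 to 0.11, small -0.09 to 0.06), and for Myc lymphomas over normal spleen 41 (without normal replicate 1) to 62 higher and 0 lower, with medians of 0.68 to 1.01 (large 0.65 to 1.01, small 0.66 to 0.96). The median of all genes, -0.03 for vector lymphomas and 0.08 for Myc lymphomas over normal spleen, moved to -0.18 and -0.11 with library totals only, to 0.19 for the latter with DESeq2 and to -0.02 with limma voom, and with the length trend removed to -0.10, and to -0.03 from 0.08 in Myc over vector lymphomas. No paired analysis was possible because the replicate numbers only follow the order of the samples. At 28726309 counts or more per sample, counting error weighs most on Mrps36, at 0.61 CPM in its lowest sample.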
